A study of Mus musculus with 384 samples.

Results

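Nuclear receptors are transcription factors that bind DNA as monomers, homodimers or heterodimers and change target gene transcription when a ligand or a coregulator binds them. In liver they couple fatty acids, oxysterols, bile acids and foreign chemicals to lipid, glucose and drug metabolism, and several of them act only as heterodimers with the retinoid X receptor RXRA. The 9 receptor genes described here are Hnf4a, Nr5a2, Rxra, Nr1h3, Nr1h2, Nr1i2, Pparg, Ppard and Esrra. They were taken by gene name, as the rows of a deposited table of 21454 genes whose Ensembl identifiers belong to them. Each of the 9 had a value above 0 in all 192 mice and passed the filter on low values, which kept 14602 genes.

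The mice were Diversity Outbred animals (J:DO), an outbred stock descended from several inbred strains, so that each mouse carries its own combination of founder alleles. All were wild type in genotype by their labels, 26 weeks old, and fed from weaning on standard chow with 6% fat by weight or on a high fat chow with 22% fat by weight. There were 50 chow females, 48 high fat females, 48 chow males and 46 high fat males, from generations labelled G11L1 (97 mice) and G11L2 (95 mice). Whole liver RNA was read as 100 bp single-end reads, the 2 technical repeats of a mouse were given 1 column in the table, and the mouse is the replicate throughout. In whole liver, fewer cells of a type and less RNA per cell cannot be told apart. Estimated depth ran from 9.78 to 17.9 megareads per mouse (median 14.2). In 10 mice pancreas transcripts were high and in 1 labelled female Xist was low. Hepatocyte markers were present in every group, and 6 of 11 pancreas markers in the table and 3 of 8 adipocyte markers (Plin1, Lep and Retn) had a median of 0 over all mice.

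Promoter sequence from RefSeq was matched for all 9 genes, with 15 windows of 300 bases (250 before to 50 after a start site) on GRCm38.p6. The windows were searched on both strands for AGGTCA, the core hexamer that most of these receptors contact, for AGGTCANAGGTCA, the direct repeat with 1 base between that HNF4A and the heterodimers of PPARs with RXRA bind, and for TCAAGGTCA, the extended site of ESRRA and NR5A2, which contains the hexamer. AGGTCA stood in 4 of the 15 windows (26.7%), in Pparg, Rxra and Nr5a2, against 16.3% of 32851 RefSeq windows of this length. The direct repeat stood in none of the 15 and in 0.0396% of all windows, and the extended site in none and in 0.423%. The windows below come from Pparg, Rxra and Hnf4a, genes of the pairs with Pparg described below. They are the first and last start sites of Pparg, which differ in base composition (80.3% and 40.3% G or C), and the downstream start sites of Rxra and Hnf4a. Windows of Nr1h3, also in such a pair, held no AGGTCA and are not shown. Letters are on the strand of transcription, 5′ to 3′, and capitals mark AGGTCA or its reverse complement TGACCT. A match is a description of these letters and not a measured binding site.

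Pparg chr6:115360894-115361193 + strand: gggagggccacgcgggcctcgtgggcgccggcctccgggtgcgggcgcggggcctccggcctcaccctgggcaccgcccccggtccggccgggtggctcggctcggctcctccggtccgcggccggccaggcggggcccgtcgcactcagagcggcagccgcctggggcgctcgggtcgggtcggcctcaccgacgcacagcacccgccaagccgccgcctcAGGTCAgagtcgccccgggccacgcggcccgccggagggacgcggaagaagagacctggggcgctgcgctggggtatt
Pparg chr6:115421816-115422115 + strand: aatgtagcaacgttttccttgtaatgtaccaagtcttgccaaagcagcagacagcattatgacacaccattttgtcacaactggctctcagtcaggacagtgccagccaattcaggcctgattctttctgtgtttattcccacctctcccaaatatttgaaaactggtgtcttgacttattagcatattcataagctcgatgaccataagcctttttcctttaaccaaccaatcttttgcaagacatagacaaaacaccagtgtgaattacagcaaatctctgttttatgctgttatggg
Rxra chr2:27709042-27709341 + strand: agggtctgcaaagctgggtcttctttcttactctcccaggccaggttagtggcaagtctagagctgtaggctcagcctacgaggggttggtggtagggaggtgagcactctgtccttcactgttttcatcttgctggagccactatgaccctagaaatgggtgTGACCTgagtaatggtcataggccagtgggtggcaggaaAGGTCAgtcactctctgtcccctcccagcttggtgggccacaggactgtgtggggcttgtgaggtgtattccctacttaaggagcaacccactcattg
Hnf4a chr2:163546905-163547204 + strand: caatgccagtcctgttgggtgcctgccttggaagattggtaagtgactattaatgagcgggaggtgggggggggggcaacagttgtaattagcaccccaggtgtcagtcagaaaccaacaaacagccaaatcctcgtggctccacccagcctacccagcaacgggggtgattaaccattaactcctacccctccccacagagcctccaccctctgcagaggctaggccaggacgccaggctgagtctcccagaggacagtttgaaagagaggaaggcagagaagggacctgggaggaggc

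In the first Pparg window the hexamer began 28 bases before the start site, and the downstream Rxra window held 2, whose first bases lay 87 and 48 bases before it. In another Pparg window (chr6:115362099-115362398, not shown) the hexamer began 9 bases before the start site. The last Pparg window and the Hnf4a window held none.

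The first question was how strongly each receptor was expressed. Divided by exon length, the median signal over 192 mice was 24.8 per kb for Hnf4a, the receptor that maintains the hepatocyte programme, and 18.6 for Rxra, the shared dimer partner. Nr1h3 (LXR alpha, an oxysterol receptor) followed at 9.26, Nr1i2 (PXR, a sensor of foreign chemicals) at 6.05, Nr1h2 (LXR beta) at 2.46, Nr5a2 (LRH-1, a regulator of bile acid genes) at 2.06 and Esrra (ERR alpha, a regulator of mitochondrial genes) at 1.33. Pparg, the receptor of adipocyte and lipid storage genes, had a median of 0.497 per kb, and Ppard, a receptor that responds to fatty acids, 0.185. The per-kb ranges of neighbours in this order overlapped, but within a mouse the order was mostly kept: Hnf4a lay above Rxra in 191 of 192 mice, Rxra above Nr1h3 in 192, Nr1h3 above Nr1i2 in 184, Nr1i2 above Nr1h2 in 192, Nr1h2 above Nr5a2 in 160, Nr5a2 above Esrra in 178, Esrra above Pparg in 179, and Pparg above Ppard in 169. Among 38 nuclear receptor genes tested, Hnf4a and Rxra ranked 1 and 2 per kb, Pparg 27 and Ppard 34. On GRCm38 with the GENCODE M21 annotation, Hnf4a (ENSMUSG00000017950) lies at chr2:163506808-163572910, Rxra (ENSMUSG00000015846) at chr2:27676440-27762957, Nr1h3 (ENSMUSG00000002108) at chr2:91184061-91202834 and Nr1i2 (ENSMUSG00000022809) at chr16:38248323-38294824. Nr1h2 (ENSMUSG00000060601) lies at chr7:44549616-44553951, Nr5a2 (ENSMUSG00000026398) at chr1:136842571-136960448, Esrra (ENSMUSG00000024955) at chr19:6910977-6921813, Pparg (ENSMUSG00000000440) at chr6:115360951-115490399 and Ppard (ENSMUSG00000002250) at chr17:28232700-28301474. Exons of Esrra share 164 bases (3.74% of its exon length) with other genes, the opposite-strand Trmt112 among them, and whether the counting used strand is not given, so a small part of its signal may be theirs. By the depth estimate, the median mouse had about 93 reads of Pparg and 88.1 of Ppard, so these 2 genes carry the most counting noise.

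**Figure D1:**
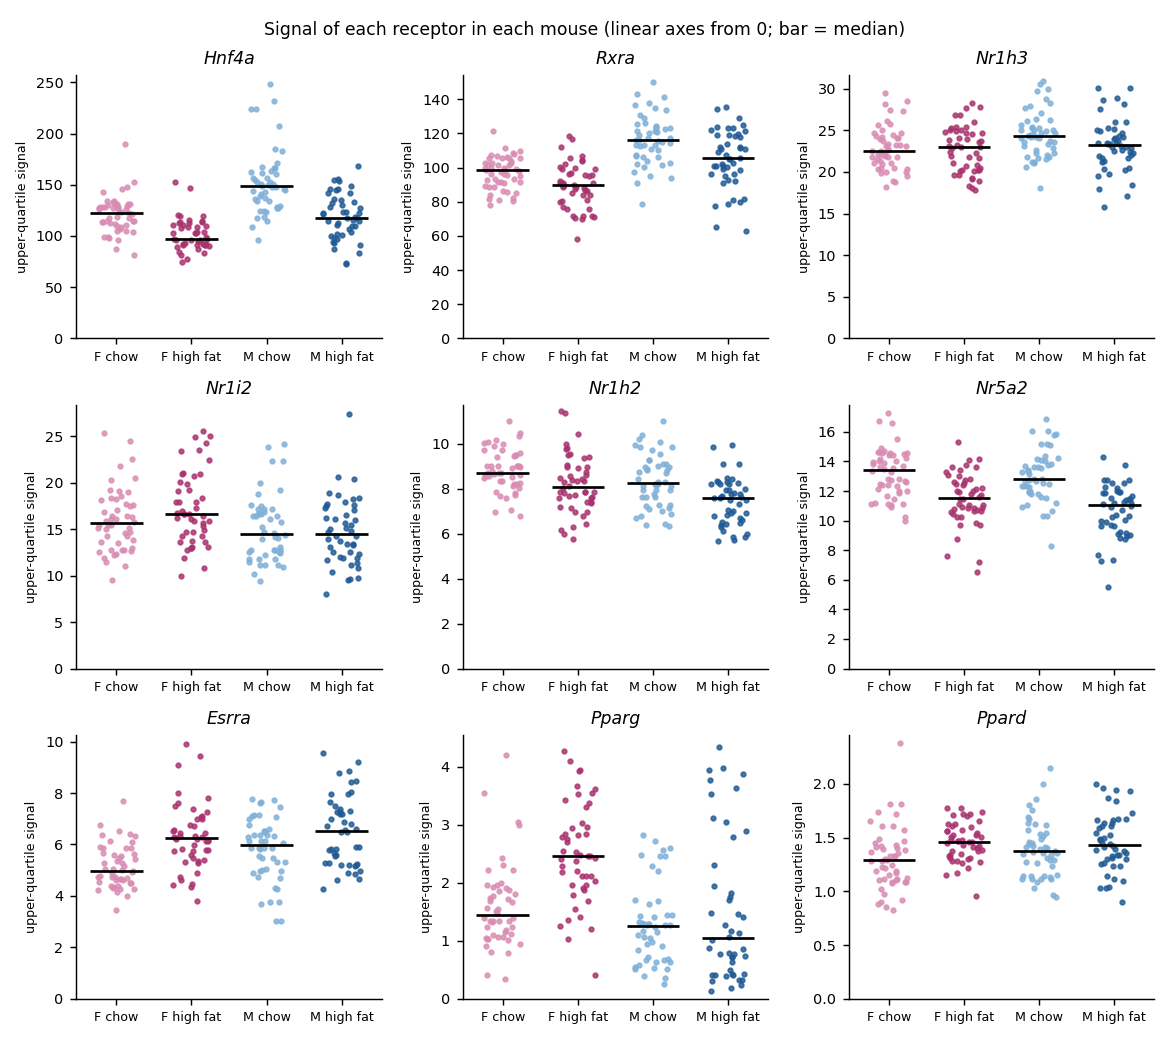
Upper-quartile normalized signal (y axis, linear, from 0) of each receptor in each of the 192 mice, in the 4 groups of sex and diet (x axis), with the median as a bar. The groups overlap for each gene, Hnf4a and Rxra are highest in chow males, and the Pparg values of high fat males run from 0.14 to 4.34.

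The next question was what the high fat diet did to each receptor in each sex. The diet changed 7 of the 9 receptors in females (3 higher, 4 lower) and 6 of 9 in males (1 higher, 5 lower) by limma at an adjusted p under 0.05. Hnf4a, Nr5a2, Rxra and Nr1h2 fell and Esrra rose in both sexes, Pparg and Ppard rose in females, and Nr1h3 fell in males. Of all 14602 genes, 10% were called higher and 23.3% lower in females, and 11.4% higher and 39.8% lower in males, so that the 4 falling receptors of 9 in females and 5 of 9 in males stand beside a broad fall of the table. The median change of the 9 receptors was -0.01 in females and -0.08 in males on the log2 scale, and that of all genes -0.04 and -0.10. After median-of-ratios rescaling, which moved the median of all genes in males from -0.097 to 0.00524, 5 receptors were called in females (3 higher, 2 lower) and 4 in males (2 higher, 2 lower). Under that rescaling Hnf4a and Nr5a2 remained the receptors called lower, while the changes of Rxra and Nr1h2 were not called, that of Nr1h3 in males turned to 0.02 (not called), and Ppard was called higher in males (0.16 ± 0.05, adjusted p = 0.00591). After quantile normalization 6 receptors were called in females (4 higher, 2 lower) and 3 in males (1 higher, 2 lower). Within 1 generation label the falls of Hnf4a and Nr5a2 were called in both labels and both sexes. In G11L2 mice alone the rises of Pparg (0.55, adjusted p = 0.0669), Ppard (0.10, adjusted p = 0.382) and Esrra (0.18, adjusted p = 0.136) in females were not called, and in G11L1 mice alone neither were the falls of Rxra (-0.06, adjusted p = 0.47) and Nr1h2 (-0.06, adjusted p = 0.49). In males Nr1h2 was not called in G11L2 alone (-0.08, adjusted p = 0.315) and Nr1h3 in neither label alone (adjusted p = 0.148 and 0.221).

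Hnf4a had a signal of 81.2 to 189 in chow females (median 123) and 74.5 to 153 in high fat females (median 97.2). Chow males had 96.0 to 249 (median 148) and high fat males 72.6 to 169 (median 118). The groups overlapped, and the high fat median was the lower one in both sexes. On the log2 scale the change was -0.26 ± 0.05 (SE) in females, or 1.195-fold lower (adjusted p = 1.36e-05), and -0.35 ± 0.05 in males, or 1.28-fold lower (adjusted p = 2.39e-09).

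Nr5a2 ran from 9.94 to 17.25 in chow females (median 13.4) and from 6.56 to 15.3 in high fat females (median 11.5), and from 8.26 to 16.9 (median 12.8) and 5.50 to 14.3 (median 11.1) in males. It was 1.16-fold lower on high fat in females (-0.21 ± 0.04, adjusted p = 6.14e-05) and 1.23-fold lower in males (-0.30 ± 0.05, adjusted p = 1.66e-08). The ranges overlapped, and the lowest value was that of a high fat male.

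Of 8 hepatocyte markers, 4 were called lower on high fat in females and 6 in males, with medians of -0.15 and -0.26, beside 23.3% and 39.8% of all genes called lower. Across mice 6 of the 8 were positively correlated with Hnf4a and 4 with Nr5a2, beside 34.2% and 31.3% of all genes. The summed signal of the 8 markers ran from 14360 to 37870 in chow females (median 24360), 14130 to 61120 in high fat females (median 21590), 12660 to 32190 in chow males (median 20850) and 9045 to 34800 in high fat males (median 16460). No hepatocyte marker had a median of 0 over all mice, and the part of these markers in the fall of Hnf4a and Nr5a2 was not tested.

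Of 22 genes taken as HNF4A targets from general knowledge, 13 were called lower and 2 higher on high fat in females, and 14 lower and 3 higher in males (medians -0.14 and -0.21). Over all genes 23.3% were lower and 10% higher in females, and 39.8% lower and 11.4% higher in males. This list and the target lists below were chosen with earlier results of these data known. The 2 apolipoprotein genes Apoc2 (0.87 ± 0.09 in females, 0.75 ± 0.09 in males) and Apoa4 (1.505 ± 0.22 and 2.00 ± 0.22) rose, against the direction of Hnf4a. The coagulation factor gene F7 fell in females (-0.47 ± 0.08) and Apob, the main protein of very low density lipoprotein, fell in males (-0.35 ± 0.06). Among 17 listed NR5A2 targets, 5 rose and 2 fell in females, and 3 rose and 4 fell in males. The desaturase gene Fads2 rose in both sexes (0.96 ± 0.09 and 0.61 ± 0.10) and the glutaminase gene Gls2 fell in both (-0.60 ± 0.09 and -0.46 ± 0.10).

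Rxra had medians of 98.35 in chow females (77.8 to 121) and 89.5 in high fat females (58.0 to 119), 116 in chow males (78.5 to 150) and 106 in high fat males (62.8 to 135). The fall was small, at -0.12 ± 0.04 in females (adjusted p = 0.0106) and -0.16 ± 0.04 in males (adjusted p = 0.000468), and it did not pass after either rescaling. Nr1h2 fell by 0.11 ± 0.04 in females (adjusted p = 0.019) and by 0.17 ± 0.04 in males (adjusted p = 0.00026), from medians of 8.72 to 8.08 and of 8.27 to 7.60. With the deposited scaling Nr1h3 was called only in males (-0.08 ± 0.04, adjusted p = 0.0425), where the medians were 24.3 on chow and 23.2 on high fat. The intervals of its change were -0.08 to 0.06 in females and -0.16 to -0.01 in males, and the difference between the sexes was not called (adjusted p = 0.364).

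Of 19 listed LXR targets, 9 rose in females and 10 in males, and none was called lower in either sex. The shares of all genes were 10% and 11.4% higher, and 23.3% and 39.8% lower. Scd1, a stearoyl-CoA desaturase (2.21 ± 0.25), Pltp, a phospholipid transfer protein (1.26 ± 0.14), and Lpcat3, an acyltransferase of phospholipids (0.41 ± 0.05), led in females. In males the cholesterol transporter gene Abcg1 (0.52 ± 0.08), Scd2 (0.93 ± 0.15) and Arl4c (0.42 ± 0.07) led.

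Nr1i2 was not called in either sex with the deposited scaling. Its change was 0.10 ± 0.06 in females (interval -0.03 to 0.23) and -0.04 ± 0.07 in males (interval -0.17 to 0.09). Its medians were 15.6 and 16.6 in females and 14.5 and 14.5 in males. Cyp3a11, the drug-metabolizing cytochrome P450 that PXR is best known for, rose in females (1.43 ± 0.20, adjusted p = 7.32e-10) and fell in males (-0.99 ± 0.20, adjusted p = 1.08e-05), and the difference between the sexes was -2.43 ± 0.28 (adjusted p = 2.67e-11). Another listed target, Ces2a, fell in both sexes (-0.42 ± 0.11 and -0.80 ± 0.11). In the test of the difference between sexes 1 of the 18 listed PXR targets was called lower in males, Cyp3a11. Cyp2b10 was the 1 called higher (1.05 ± 0.36, adjusted p = 0.049), and 16 were not called. The shares of all genes in that test were 6.92% lower and 1.46% higher. By diet, 2 of the 18 rose and 7 fell in females, and 4 rose and 7 fell in males. Among all genes 10% rose and 23.3% fell in females, and 11.4% rose and 39.8% fell in males.

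Esrra rose in both sexes. Chow females had 3.45 to 7.71 (median 4.98), high fat females 3.82 to 9.92 (median 6.24), chow males 3.02 to 7.76 (median 5.97) and high fat males 4.25 to 9.55 (median 6.53). The ranges overlapped in both sexes, and in each the high fat group reached higher. The change was 0.28 ± 0.06 in females, or 1.21-fold (adjusted p = 4.59e-05), and 0.17 ± 0.06 in males, or 1.12-fold (adjusted p = 0.0127), but in G11L1 mice alone the change in males was 0.08 and was not called. Of 22 listed ERR alpha targets, mostly genes of the respiratory chain, ATP synthase and citric acid cycle, with others such as Pdk4, Acadm, Tfam and Mfn2, 4 rose and none fell in females, while none rose and 10 fell in males. Among all genes 10% rose and 23.3% fell in females, and 11.4% rose and 39.8% fell in males. Ogdh, an enzyme of the citric acid cycle, rose in females (0.14 ± 0.03), and Idh3b of the same cycle and Uqcrfs1 of the respiratory chain fell in males (-0.20 ± 0.04 and -0.18 ± 0.04).

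Ppard rose in females by 0.17 ± 0.05 (adjusted p = 0.00387), with medians of 1.29 on chow and 1.46 on high fat. In males the change was 0.06 ± 0.05 and was not called with the deposited scaling, at medians of 1.37 and 1.43. Of 11 listed PPAR delta targets, 6 rose and 1 fell in females, and 1 rose and 4 fell in males. The shares of all genes were 10% and 23.3% in females, and 11.4% and 39.8% in males. Fgf21, a hormone secreted by the liver (1.205 ± 0.21), and Cpt1a, which admits fatty acids to mitochondria (0.26 ± 0.06), were among those that rose in females.

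Pparg had the largest diet change of the 9 receptors in females. Chow females had a signal of 0.333 to 4.2 (median 1.44) and high fat females 0.417 to 4.27 (median 2.47). Chow males had 0.2495 to 2.82 (median 1.25) and high fat males 0.140 to 4.34 (median 1.04). Both high fat groups reached as high as the highest chow female, and high fat males also held the lowest values. In females Pparg rose 1.585-fold (0.66 ± 0.17, adjusted p = 0.000975). In males the change was -0.06 ± 0.17 (interval -0.40 to 0.28, adjusted p = 0.802). These errors, intervals and p values come from a limma fit with a spread shared by all groups. The spread of Pparg, given below, was not equal in them, and this was not modelled.

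The difference between the diet effects of males and females was called for 1 of the 9 receptors, Pparg, at -0.72 ± 0.24 (adjusted p = 0.0423). Over all genes 1.46% were called higher and 6.92% lower in this test. The call was narrow: the adjusted p was 0.0981 after median-of-ratios rescaling, 0.06 after quantile normalization, 0.0586 without the filter, 0.0508 without the 10 mice with pancreas transcripts, 0.372 in G11L1 mice alone and 0.221 in G11L2 mice alone, with the same sign in each.

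Genes of lipid uptake and lipid droplets were taken as PPAR gamma targets from general knowledge, with earlier results of these data known. Of 13 tested, 10 rose and none fell in females, and 7 rose and 1 fell in males, with medians of 0.59 and 0.56. Among all genes 10% rose and 23.3% fell in females, and 11.4% rose and 39.8% fell in males. Mogat1, an acyltransferase of triglyceride synthesis, rose by 2.66 ± 0.24 in females and 1.64 ± 0.25 in males on the log2 scale. Cd36, a fatty acid uptake protein, rose by 1.34 ± 0.15 in males, Plin4, a lipid droplet coat protein, by 1.72 ± 0.22 in females, and Fitm2 by 0.59 ± 0.07 in females. In the test of the difference between sexes 6 of the 13 were called lower and 1 higher in males, Fitm2 (-0.54 ± 0.10, adjusted p = 0.000119) and Cd36 (0.82 ± 0.21, adjusted p = 0.00727) among them. The shares of all genes in that test were 6.92% lower and 1.46% higher.

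**Figure D2:**
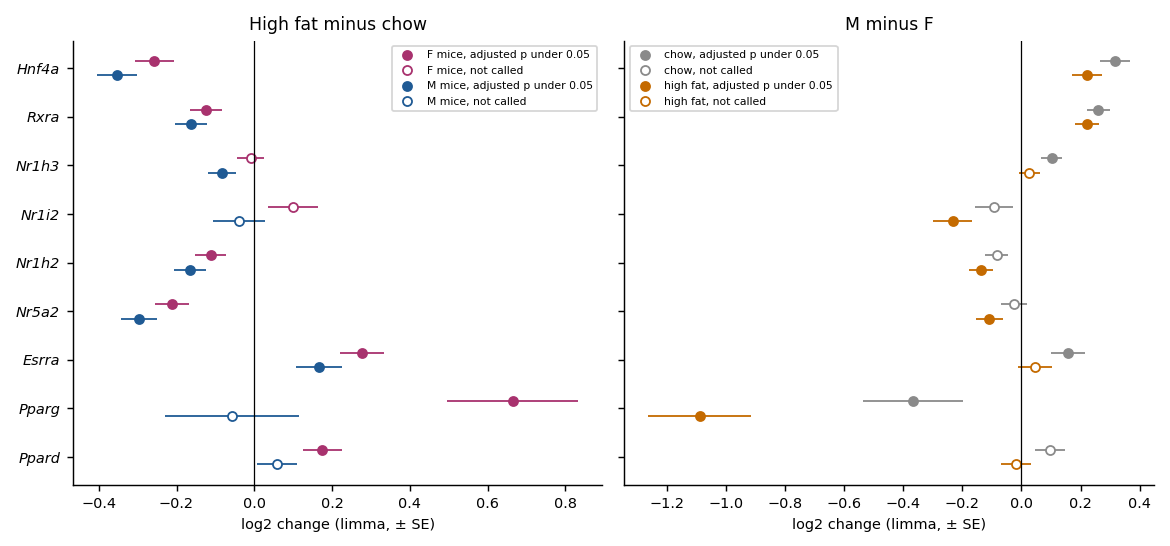
Log2 change of each receptor (x axis, limma, bars are SE) for high fat minus chow in each sex (left) and for males minus females on each diet (right). Filled points have an adjusted p under 0.05. Hnf4a and Nr5a2 lie below 0 in both sexes on the left, and Pparg has the widest separation between the sexes.

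The comparison of males with females asked whether the receptors differ by sex on each diet. On chow 5 of 9 receptors were called (4 higher in males, 1 lower), beside 44.1% of all genes higher and 19.1% lower. On high fat 6 were called (2 higher, 4 lower), beside 31.5% higher and 18.3% lower. With the deposited scaling the median of all genes was 0.10 higher in chow males. After median-of-ratios rescaling, which brought that median to -0.00823, 6 receptors were called on chow (2 higher, 4 lower) and 6 on high fat (2 higher, 4 lower).

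Hnf4a and Rxra were higher in males under each scaling. Hnf4a was 1.25-fold higher on chow (0.32 ± 0.05, adjusted p = 9.09e-09) and 1.165-fold on high fat (0.22 ± 0.05, adjusted p = 0.000113). Rxra was 1.20-fold higher on chow (0.26 ± 0.04, adjusted p = 5.04e-09) and 1.17-fold on high fat (0.22 ± 0.04, adjusted p = 1.37e-06). Both ranges overlapped between the sexes.

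On high fat Pparg was 2.13-fold lower in males (-1.09 ± 0.17, adjusted p = 2.18e-08), a larger change than in 97.4% of tested genes. On chow it was 1.29-fold lower (-0.37 ± 0.17, adjusted p = 0.0497), a call lost under 8 of 13 alternatives, among them each generation label alone and the fit without mice with pancreas transcripts (adjusted p = 0.0528). Nr1i2 (-0.23 ± 0.07, adjusted p = 0.00179), Nr1h2 (-0.14 ± 0.04, adjusted p = 0.00252) and Nr5a2 (-0.11 ± 0.05, adjusted p = 0.0365) were also lower in high fat males, although the call of Nr5a2 was lost without the mice with pancreas transcripts (adjusted p = 0.0653) and in G11L1 mice alone. In G11L1 mice alone Nr1i2 was not called either (-0.13, adjusted p = 0.261), and in G11L2 mice alone Nr1h2 was not (-0.03, adjusted p = 0.745). With the deposited scaling Nr1i2 (-0.09, adjusted p = 0.209), Nr1h2 (-0.08, adjusted p = 0.0546) and Nr5a2 (-0.02, adjusted p = 0.647) were not called on chow. After either rescaling 4 receptors were called lower in chow males, against 1 with the deposited scaling. A sex difference on high fat alone is therefore not shown for these receptors. On chow Esrra (0.16 ± 0.06) and Nr1h3 (0.10 ± 0.04) were called higher in males with the deposited scaling alone. After median-of-ratios rescaling Esrra was 0.04 and Nr1h3 -0.02, and neither was called.

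Among 29 other nuclear receptor genes tested, 12 were higher and 8 lower in chow males, beside 44.1% and 19.1% of all genes. The smallest p belonged to the estrogen receptor gene Esr1 (-1.27 ± 0.11), Esrrg (-1.19 ± 0.15) and Nr1i3 (CAR, -0.96 ± 0.13). On the high fat diet 2 of the 29 rose and 6 fell in females, and 1 rose and 10 fell in males, beside 23.3% and 39.8% of all genes lower, Nr2c1 among them in both (-0.22 ± 0.05 and -0.36 ± 0.05). Of 19 coregulator genes, which encode the proteins that receptors recruit, 1 rose and 8 fell on high fat in females and none rose and 11 fell in males, beside the same shares. Ncoa3, a steroid receptor coactivator, fell in both sexes (-0.15 ± 0.04 and -0.20 ± 0.04).

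No receptor was called between generation labels or coat colours. In limma's fit 1 of 9 had an unadjusted p under 0.05 for the generation label, 1 for black against agouti and 1 for white against the mean of agouti and black. Few genes of the table were called in these contrasts: 0.397% higher and 0.541% lower in G11L2, 0.0342% higher and 0.0548% lower in black mice (30 against 131 agouti), and 0.00685% in each direction in the 25 white mice.

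Spread between mice was the next question. The coefficient of variation of Pparg was 45.7% in chow females, 34.2% in high fat females, 54.2% in males on chow and 83.6% in males on high fat, where it exceeded that of 91.7% of tested genes. The highest high fat male had 31.0 times the signal of the lowest. In comparison, the coefficients of Rxra, Nr1h3, Nr1h2 and Nr5a2 lay between 9.71% (Rxra, chow females) and 16.7% (Nr5a2, high fat males), those of Hnf4a between 14.7% and 20.9%, and those of Nr1i2 between 21.1% and 24.4%. The median over all tested genes was 21.2% to 24.4% in the 4 groups.

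Spread was tested with limma by how far a mouse lay, in either direction, from the median log2 level of its group. For Pparg the mean deviation was 0.47 in chow females, 0.41 in high fat females, 0.61 in males on chow and 1.04 in males on high fat. Averaged over diets, it was 0.38 ± 0.07 greater in males (adjusted p = 2.92e-05), and Pparg was the 1 receptor of 9 called, beside 4.27% of all genes with greater and 0.623% with smaller spread in males. In G11L2 mice alone the difference was 0.29 and was not called (adjusted p = 0.151). Averaged over sexes, the diet changed the spread of no receptor by this test (2 of 9 had an unadjusted p under 0.05), beside 1.86% of genes with greater and 0.363% with smaller spread on high fat. Within males the spread of Pparg was 0.42 ± 0.10 greater on high fat (adjusted p = 0.0149, beside 0.952% of genes called greater), and within females it changed by -0.06 ± 0.10 (adjusted p = 0.912, beside 0.247%). The difference between these was not called (adjusted p = 0.433, beside 0.0342% of genes called in either direction).

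**Figure D3:**
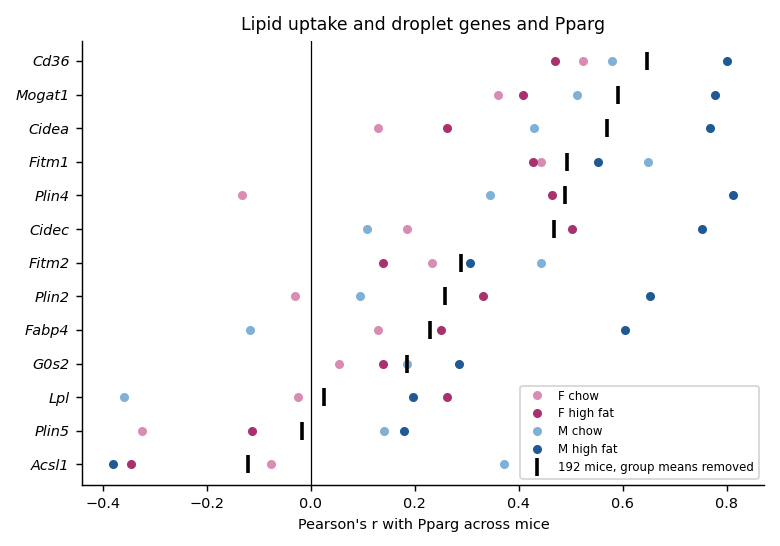
Pearson's r with Pparg across mice (x axis) for 13 genes of lipid uptake and lipid droplets (y axis), in each group (points) and over all 192 mice after removing group means and the generation effect (bars). High fat males have the highest r for Cd36, Cidea, Cidec, Plin4, Mogat1, Plin2 and Fabp4, and Acsl1 lies at -0.38 there.

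The last question was which receptors varied together across mice once group means and the generation effect were removed. Each receptor was correlated with every other tested gene, 131409 relations in all, with permutations of mice within groups and adjustment over all of them. Of these relations 26.9% were called positive and 8.88% negative, so a called correlation is common in this table. Of the 36 pairs of receptors 24 were called, 21 positive and 3 negative, and either rescaling left 13 called. Where r is given for a single group, the generation effect was not removed unless stated.

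Rxra and Hnf4a were the closest pair, with r = 0.68 and rho = 0.69 (permutation adjusted p = 9.82e-05, the smallest reached among the 131409 relations). The r was 0.59 after median-of-ratios rescaling and 0.64 without the 2 farthest mice. By group it was 0.35 in chow females, 0.70 in high fat females, 0.68 in males on chow and 0.79 in males on high fat. For Hnf4a, Rxra was the gene of highest r among tested genes with a symbol, predicted genes and pseudogenes left out, followed by Yap1 (0.66) and Ptbp1 (0.65).

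Nr1h2 and Esrra had r = 0.53, Nr1h3 and Esrra 0.41, Nr1i2 and Esrra 0.40, Nr1h3 and Rxra 0.40, and Nr1h2 and Nr1h3 0.39, each with a permutation adjusted p of 9.82e-05. Of the genes that encode dimer partners of RXRA, Nr1h3 (0.40), Nr1i2 (0.34), Nr1h2 (0.33) and Ppard (0.28) had a positive r with Rxra, and Pparg had a negative one (-0.38). After median-of-ratios rescaling these were 0.17, 0.19, 0.16, 0.16 and -0.42, so the positive values shrank and the negative one did not. Those of Nr1h3, Nr1h2 and Ppard with Rxra were then no longer called, and after quantile normalization none of the 4 positive ones was.

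Pparg was negatively correlated with Rxra (r = -0.38, rho = -0.34), Hnf4a (r = -0.31, rho = -0.27, permutation adjusted p = 0.000553) and Nr1h3 (r = -0.30, rho = -0.21, permutation adjusted p = 0.000553). Without the 2 farthest mice r was -0.35, -0.30 and -0.26. These 3 relations differed between the groups. In high fat males the r of Pparg was -0.74 with Hnf4a, -0.62 with Rxra and -0.56 with Nr1h3, while in chow males it was 0.19, 0.01 and 0.16. In high fat females it was -0.46, -0.47 and -0.25, and in chow females 0.03, -0.13 and -0.35. With the generation effect removed, the values in chow females were -0.01, -0.14 and -0.42. The generation labels differed in females. In high fat females r was -0.42, -0.20 and 0.34 in G11L1 mice alone, and -0.50, -0.67 and -0.62 in G11L2 mice alone. In chow females it was -0.18, -0.07 and -0.56 in G11L1, and 0.23, -0.25 and -0.26 in G11L2. The sign thus changed between labels for Nr1h3 in high fat females and for Hnf4a in chow females.

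The difference between diets was tested within each sex by permuting diet labels over mice, a test chosen after the correlations were seen, for each receptor with every other tested gene. In males 1.61% of the relations were called in either direction, but 5.75% of those of Pparg, 3.6% of those of Rxra and 2.94% of those of Hnf4a. All 3 pairs, each with Pparg, were among them, at -0.93 for Pparg and Hnf4a (adjusted p = 0.0171), -0.62 for Pparg and Rxra (adjusted p = 0.0171) and -0.71 for Pparg and Nr1h3 (adjusted p = 0.024), and no other of the 36 receptor pairs was called. Under median-of-ratios rescaling the difference of Pparg and Hnf4a was -0.82 (permutation p = 5e-05, unadjusted, the smallest 20000 permutations can give), and after quantile normalization it was -0.61 (permutation p = 0.00015). For Pparg and Rxra quantile normalization left -0.27 (permutation p = 0.0982) and for Pparg and Nr1h3 -0.23 (permutation p = 0.22). In females 0% of the relations were called at an adjusted p under 0.05 by the same permutation test, although 1410 of Pparg's 14601 relations had an unadjusted p under 0.05, and the difference for Pparg and Hnf4a was -0.49 (adjusted p = 0.523). Whether the male and female differences differ from each other was not tested.

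**Figure D4:**
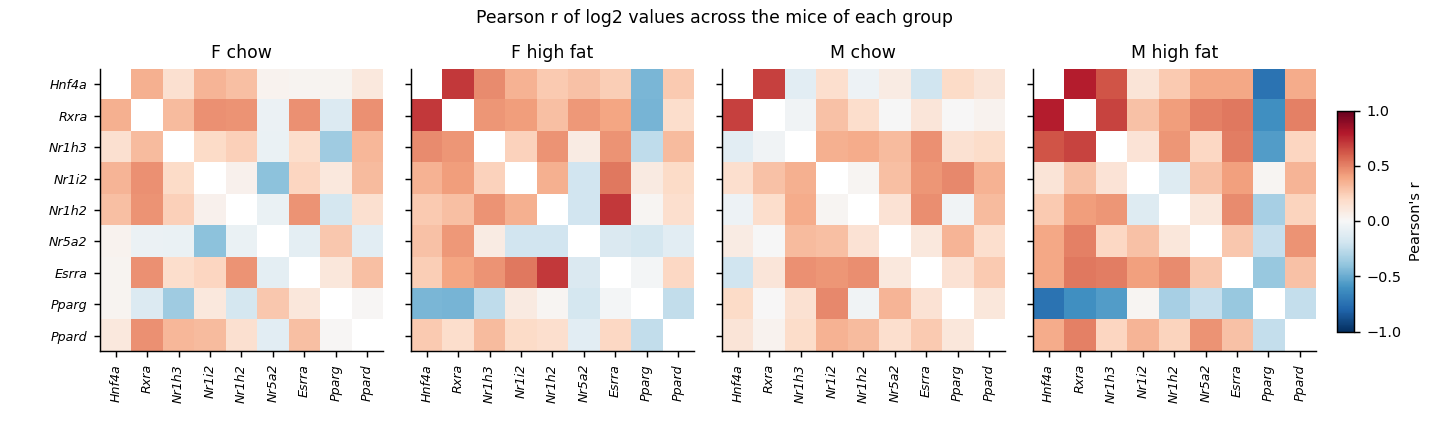
Pearson's r between log2 values of each pair of receptors (colour scale from -1 to 1, blank diagonal) across the mice of each of the 4 groups. In high fat males the Pparg row is negative with Hnf4a, Rxra and Nr1h3 while those 3 are positive with each other, and in chow males the r of Pparg with them lies between 0.01 and 0.19.

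**Figure D5:**
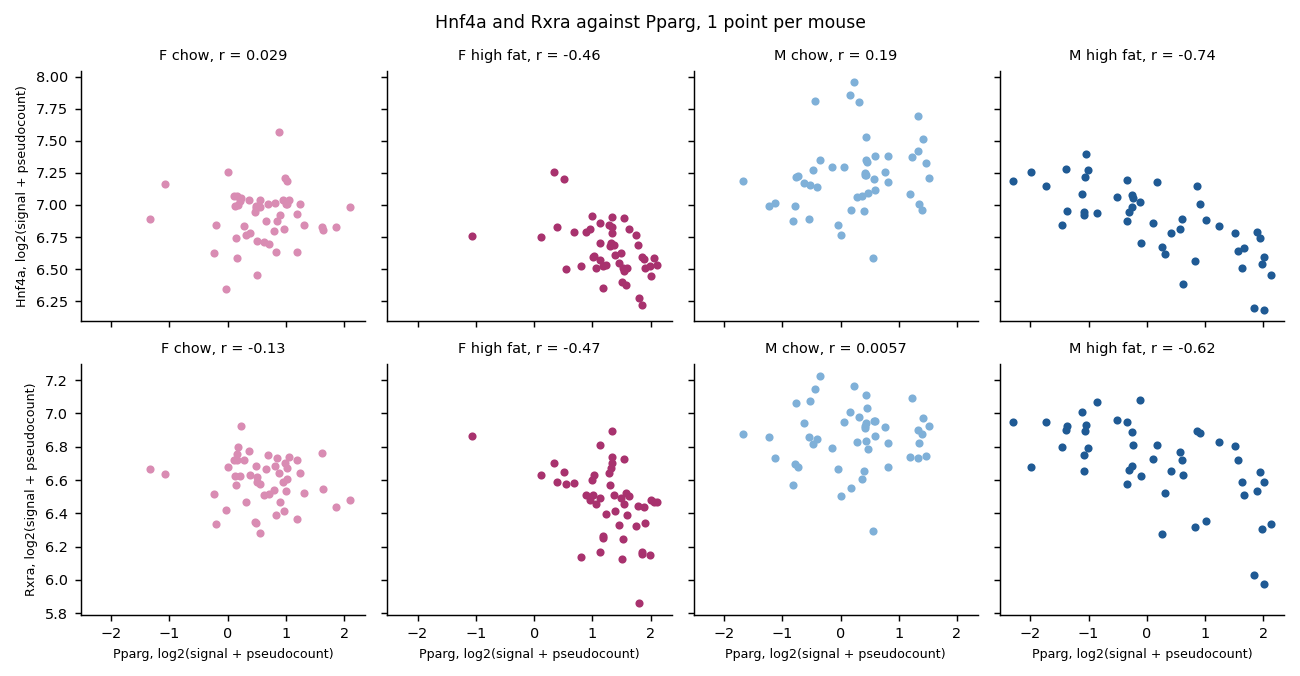
Log2 level of Hnf4a (top) and Rxra (bottom) against that of Pparg (x axis), with 1 point per mouse, in each group. High fat males show a falling band (r of -0.74 and -0.62) and chow males none (0.19 and 0.01).

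Of all genes, 9.42% were called positive with Pparg, 15.65% with Ppard, 23.7% with Nr1h2, 31.7% with Nr1h3, 25.9% with Nr1i2, 40.5% with Rxra, 34.2% with Hnf4a, 31.3% with Nr5a2 and 29.2% with Esrra. Called negative were 14.1%, 2.87%, 10.5%, 8.07%, 6.39%, 10.7%, 9.64%, 8.33% and 9.33%, in the same order. The counts of each receptor are read against its own shares. Genes that encode known targets gave a second view of each receptor's variation across mice, as correlations of RNA levels over 192 mice. Of the 13 lipid uptake and droplet genes, 10 were positively correlated with Pparg and none negatively (median r 0.29, against -0.03 for all genes with Pparg). Among tested genes with a symbol, predicted genes and pseudogenes left out, Cd36 was the highest with Pparg (r = 0.65, rho = 0.64, 0.47 to 0.80 in the 4 groups). Clstn3 (0.64) and Aldh3a2 (0.61), a fatty aldehyde dehydrogenase, followed, and the growth factor receptor gene Egfr was the lowest (-0.63). In high fat males r was 0.81 with Plin4, 0.78 with Mogat1, 0.77 with Cidea and 0.75 with Cidec, and in chow females -0.13, 0.36, 0.13 and 0.19.

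Markers of lipid-associated macrophages, cells that can also express Pparg, moved with it in part. Of 8, 4 were positively correlated with Pparg (Mmp12 0.36, Trem2 0.35, Gpnmb 0.33 and Itgax 0.30) and none negatively, and 7 rose on high fat in females and 6 in males, where Pparg was not called. Among all genes 10% rose in females and 11.4% in males. The summed signal of these macrophage markers ran from 6.70 to 13.7 in chow females (median 9.51), 6.39 to 64.6 in high fat females (median 14.9), 6.11 to 53.5 in chow males (median 10.4) and 8.56 to 140 in high fat males (median 20.5), with no marker at a median of 0 over all mice. Of 12 Kupffer cell markers none was positively and 6 were negatively correlated with Pparg, beside 9.42% and 14.1% of all genes. Their summed signal had medians of 132, 144, 88.4 and 110 in the 4 groups (68.3 to 494, 53.3 to 272, 40.8 to 166 and 49.8 to 248). Of the 8 hepatocyte markers 1 was positively and 4 negatively correlated with Pparg, while 6 were positively correlated with Hnf4a and 6 with Rxra, none negatively. Of 8 adipocyte markers 3 passed the filter. Fabp4, which is also among the lipid genes, rose on high fat in females (0.47 ± 0.15) and males (0.78 ± 0.16), and Adrb3 rose in males (0.96 ± 0.23). With Pparg, Fabp4 had an r of 0.23 and Nnat -0.28, both called, and Adrb3 -0.14, not called. The summed signal of the adipocyte markers ran from 0.405 to 2.695 in chow females (median 1.34), 0.603 to 4.18 in high fat females (median 1.71), 0.464 to 6.85 in chow males (median 1.56) and 1.29 to 6.75 in high fat males (median 2.805). The part of these markers in the changes and relations of Pparg was not tested.

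Of the 22 ERR alpha targets, 19 were positively correlated with Esrra and 1 negatively (median r 0.44, against 0.06 for all genes). Uqcrfs1 (0.62), Sdhb (0.54) and Atp5b (0.53), of the respiratory chain and ATP synthase, were among the highest, and Pdk4, which inhibits pyruvate dehydrogenase, was the negative one (-0.27). Among tested genes with a symbol, predicted genes and pseudogenes left out, Egln2 (0.70), an oxygen-sensing hydroxylase, was closest to Esrra. It was also among the 3 closest to Nr1h2 (0.75), after Stk11 (0.78) and Map3k11 (0.76).

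For Hnf4a 15 of 22 targets were positive and none negative (median r 0.25, against 0.09), with Tfr2 (0.43) and Apob (0.37) among the highest. Tfr2, F7 and F2 were picked out after their values were seen: in chow males they had an r of -0.10, -0.28 and -0.05 with Hnf4a, and in high fat males 0.76, 0.70 and 0.59. For Nr1i2 10 of 18 targets were positive and none negative (median r 0.18, against 0.06), led by Por (0.62), the electron donor of microsomal cytochromes P450, and Alas1 (0.52), the first enzyme of haem synthesis. Cyp3a11 was at 0.12 and not called. For Nr5a2 6 of 17 were positive, with a median r of 0.07, beside 0.07 for all genes.

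For Nr1h3 4 of 19 LXR targets were positive and 7 negative, beside 31.7% and 8.07% of all genes. Mlxipl (ChREBP, 0.45), Apoe (0.39), Srebf1 (SREBP-1, 0.30) and Abcg8 (0.23) were the positive ones. Lpl (-0.42), Abcg1 (-0.34), Pltp (-0.24), Cd5l (-0.23), Arl4c (-0.22), Scd1 (-0.20) and Scd2 (-0.19) were the negative ones, Cd5l being also a Kupffer cell gene. Lipid-associated macrophage markers were negatively correlated with Nr1h3 in 6 of 8, and the part of macrophages in these values was not tested. With Nr1h2 5 of the 19 were positive and 3 negative. None of the 11 PPAR delta targets was called with Ppard, whose highest r was 0.41 (Zfp598) among tested genes with a symbol, predicted genes and pseudogenes left out.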

How the data were processed

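RNA-seq of whole liver was measured in 192 mice. The signal values were deposited by the authors as 1 upper-quartile normalized column per mouse, not divided by gene length. CASAVA 1.8.0 and GRCm38/mm10 are named per the submitters' processing notes; the aligner, the counter and the joining of technical repeats are not given in the sources used here. Between 77.8% and 82.7% of low values fell within 0.1 of whole reads, so no count test was run. Genes above 0 in at least 46 mice with a mean of at least 0.0629 were tested as log2(signal + 0.0629), which understates changes of low genes.

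Group means with a generation covariate were fitted with limma 3.58.1 in R 4.3.3 over 14602 genes, Benjamini-Hochberg adjusted, and called under 0.05. Correlations used 100000 permutations of mice within groups (Python 3.11.15, numpy 2.4.6, scipy 1.17.1, pandas 2.3.3), and differences of correlations 20000 label permutations. The scripts were tested on simulated data. Alternatives were other pseudocounts, filters and scalings, array weights, a replicate block, single generation labels and left-out mice. The members and gene lists were chosen with earlier results of these data known. Named genes are all 9 members, per list and comparison the 3 called genes of smallest p, and per member the 3 highest and the lowest correlated genes, and the 6 receptor pairs of largest r with all pairs of Rxra partners. The highest and lowest correlated genes were taken from tested genes with a symbol, without predicted genes and pseudogenes. Target genes named for their correlation were chosen after their values were seen. Nothing says whether mice were housed or prepared in batches beyond the generation label. Values of some listed genes are not reported here.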

Additional observations from a re-analysis of the deposited data

Results flagged for a closer look

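The effect of the high fat diet on Pparg differed between the sexes, by -0.722 on the log2 scale in males minus females in limma's test of the difference (adjusted p = 0.0423). The correlation of Pparg with Hnf4a differed between the diets in males, by -0.93 in r. That of Pparg with Nr1h3 differed by -0.715 and that of Pparg with Rxra by -0.622, each by permutation of diet labels over mice and called after adjustment over 131409 relations. The tests of correlation differences were chosen after the data were seen.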

How the results depend on the processing

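Of 819 changes of single receptors under alternatives, 729 kept their call and direction, 40 lost the call, 13 gained one, 5 reversed and 32 changed sign while called under neither fit. Called receptors numbered 3 for sex on chow and 4 for diet in females in G11L2 mice alone, and 3 for diet in males after quantile normalization. The sex difference of the diet effect called 0 receptors in limma without the filter, after either rescaling, in either generation label alone and without mice with pancreas transcripts (1 of 9 had an unadjusted p under 0.05 in the fit as reported), and the adjusted p of Pparg ran from 0.0131 to 0.372 over its alternatives. The spread difference by sex called 0 in G11L2 alone. Rescaling turned Nr1h3 for sex on chow to -0.0168 (median-of-ratios) and -0.0236 (quantile), Nr1h3 for diet in males to 0.0248 and 0.0643, and Rxra for diet in females to 0.0117 (quantile). Of the 36 pairs, 13 were called after median-of-ratios rescaling, 13 after quantile normalization, 8 in chow females alone, 14 in high fat females alone, 9 in chow males alone and 19 in high fat males alone. With the generation effect removed, r in chow males alone was -0.0564 for Nr1h3 and Rxra, 0.0308 for Pparg and Rxra, 0.168 for Pparg and Hnf4a and 0.178 for Pparg and Nr1h3. For the male correlation differences, passing meant an unadjusted permutation p of at most 0.0008, the largest p called with all males. The same limit was used where fewer mice were left, so a value that did not pass may reflect fewer mice. That of Pparg and Rxra no longer passed at -0.486 (median-of-ratios, permutation p = 0.00195), -0.273 (quantile) and -0.436 (G11L2 alone). That of Pparg and Nr1h3 did not at -0.461, -0.230, -0.724 (G11L1 alone) and -0.611 (without the 2 mice of each group farthest in Pparg), while that of Pparg and Hnf4a passed under each of these. Where no cause is given, the cause was not tested. These alternatives of the correlation difference were chosen after seeing the data.

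Mouse numbers shared between females and males did not pair the mice: the median correlation of 92 same-numbered pairs was 0.0288 (-0.286 to 0.255), and 2 mice correlated best with their own number. With the number as a replicate block the sex difference of the diet effect on Pparg was -0.724 (adjusted p = 0.0378), and no count of called receptors changed.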
